A study of Mus musculus with 14 samples.

Results

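Cholesterol synthesis was followed in sorted liver sinusoidal endothelial cells (LSECs), the fenestrated cells that line the liver sinusoids, through 8 genes: Hmgcs1, Idi1, Fdps, Fdft1, Sqle and Lss, which encode enzymes of the pathway, and Insig1 and Srebf2, which encode regulators of it. The genes were taken by name, with earlier results of these data known. They are the rows of the count table whose Ensembl identifier carries one of these symbols in GENCODE vM21. All 8 were found among 54524 rows. All 8 passed the filter on low counts, which left 26626 genes for the tests.

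Cells build cholesterol from acetyl-CoA through mevalonate, isoprenoid diphosphates, squalene and lanosterol. The transcription factor SREBP2, the product of Srebf2, switches on most genes of this route. When membranes hold enough sterol, SREBP2 is kept in the endoplasmic reticulum by its escort SCAP and by INSIG proteins, and when sterol runs low it moves to the Golgi, is cut and enters the nucleus. Insig1 is itself switched on by SREBP2, so that it is a feedback gene of the route it restrains. The liver is a main site of cholesterol synthesis, and hepatocytes express these genes strongly.

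The cells came from male Balb/c mice given as 10 to 12 weeks old in the sample labels. Healthy mice (n = 4) were not injected, and no group received the mineral oil vehicle alone. The injured mice received a single intraperitoneal injection of carbon tetrachloride (CCl4), a solvent that kills hepatocytes, at 0.5 µL per g of body weight in mineral oil, and cells were taken 1 day (n = 2), 3 days (n = 4) or 7 days (n = 4) later. The day 1 group is small because other samples of it failed on RNA quality. Cells were sorted as CD32+ and F4/80-, with autofluorescent and propidium iodide-positive cells removed, and the study's methods add a gate against CD45. RNA was amplified with the SMART-seq v4 kit, and each sample is 1 mouse. In bulk RNA, fewer cells of a type and less RNA per cell cannot be told apart.

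The 14 libraries held 46401496 to 103912264 counts on genes, so that even Lss, the lowest of the 8 genes, was counted in every mouse. None of 12 LSEC and endothelial markers was at 0 in any library, and their summed level was 18365 to 21705 CPM (the count scaled to sequencing depth, with TMM-adjusted library sizes) in healthy samples and 10713 to 16121 CPM in the injured ones. Markers of other liver cells were present too, and they differed between mice. The sum of 15 hepatocyte markers was 413, 406, 687 and 14029.5 CPM in healthy replicates 1 to 4, 212 and 301 CPM at day 1, 1445 to 4574 CPM at day 3 and 1364 to 10291 CPM at day 7. Healthy replicate 4 therefore stood apart from the other healthy mice and carried the highest hepatocyte signal of all 14 libraries. Results of the 8 genes that rest on it are given with and without it. The sum of 8 monocyte and neutrophil markers ran from 508 to 1371 CPM in healthy samples, 4302 to 8346 CPM at day 1, 1354 to 12428 CPM at day 3 and 4142 to 9580 CPM at day 7. For 11 stellate cell and myofibroblast markers it ran from 152 to 276, 111 to 134, 844 to 2635 and 457 to 7497 CPM in the same order. The sum of 8 Kupffer cell and macrophage markers was 175 CPM in healthy replicate 1 and 570 to 1597 CPM in the other 13 libraries. Mitochondrially encoded genes took between 3.04% and 3.65% of counts in healthy mice and between 5.28% and 9.87% at day 7, without overlap, with days 1 and 3 between 3.06% and 5.87%.

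The stretches upstream of the start are shown for the members in which a motif linked to this pathway lay before the annotated gene, since SREBP2 works through short sterol regulatory elements and is helped by the factor NF-Y, which binds CCAAT. They are RefSeq sequences of GRCm38.p6, plus strand, 5′ to 3′, and capitals mark SRE-like letters (CACNCCAC) or CCAAT on either strand, which did not overlap each other. Windows of 250 bases before the RefSeq start were searched, and bases that GENCODE places inside the gene were left off the print.
Hmgcs1, chr13:119690101-119690350: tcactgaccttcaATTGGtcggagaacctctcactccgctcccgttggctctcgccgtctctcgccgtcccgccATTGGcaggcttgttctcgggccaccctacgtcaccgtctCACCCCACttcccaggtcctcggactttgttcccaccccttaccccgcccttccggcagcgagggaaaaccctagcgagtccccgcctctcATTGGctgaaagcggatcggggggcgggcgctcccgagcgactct
Insig1, chr5:28071162-28071362: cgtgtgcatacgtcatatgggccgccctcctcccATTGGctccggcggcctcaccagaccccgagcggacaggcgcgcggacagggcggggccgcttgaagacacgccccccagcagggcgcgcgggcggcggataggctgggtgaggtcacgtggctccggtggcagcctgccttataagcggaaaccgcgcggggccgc
Lss, chr10:76531355-76531587: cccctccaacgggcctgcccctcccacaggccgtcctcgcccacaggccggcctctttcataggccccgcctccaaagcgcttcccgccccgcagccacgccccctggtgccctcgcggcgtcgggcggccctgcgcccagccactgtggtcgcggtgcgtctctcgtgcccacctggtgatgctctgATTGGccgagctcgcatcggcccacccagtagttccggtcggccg
Srebf2, chr15:82147019-82147180: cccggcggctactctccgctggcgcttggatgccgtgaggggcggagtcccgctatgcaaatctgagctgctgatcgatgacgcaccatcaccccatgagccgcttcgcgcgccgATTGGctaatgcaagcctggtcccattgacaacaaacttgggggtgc

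Windows were found for 5 of the 8 genes, those of Hmgcs1, Idi1, Lss, Insig1 and Srebf2. CCAAT on either strand was present in 5 of 5, against 33.8% of all 32851 windows of this length and 12 of 13 windows of the other sterol synthesis enzymes. In Idi1 it lay 45 to 41 and 14 to 10 bases upstream of the RefSeq start, within the 105 bases that GENCODE places inside the gene. SRE-like letters were present in 2 of 5, 136 to 129 bases upstream in Hmgcs1 and, on the other strand, 9 to 2 bases upstream in Insig1, against 5.29% of all windows and 1 of 13 for the other sterol enzymes. The Insig1 match lies within the 49 bases that GENCODE places inside the gene, so it is not in the printed sequence. A match of letters is a description of the sequence and not a measured binding site.

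No member passed the test at any time after injury, while most of them differed widely between mice of 1 group. None was called in edgeR's quasi-likelihood test (adjusted p under 0.05) against healthy LSECs at day 1, day 3 or day 7, where 4.06%, 7.19% and 3.18% of all tested genes were called. The same test called 0 of the 8 between day 3 and day 1, day 7 and day 1, and day 7 and day 3, against backgrounds of 2.54%, 8.04% and 1.77%, and 0 in a single test of any difference between the 4 groups, against 12%. At an unadjusted p under 0.05, 1 gene each passed at day 1 (Sqle), at day 3 (Insig1), between day 3 and day 1 (Sqle) and between day 7 and day 1 (Sqle), and 0 passed in the other 2 comparisons, beside 17.9%, 22.2%, 15.8% and 24.6% of tested genes in those 4 and 21.1% (day 7 against healthy) and 18.8% (day 7 against day 3) in the other 2. The median log2 fold change of the 8 genes against healthy was 0.06 at day 1, -0.21 at day 3 and -0.03 at day 7, beside -0.03, 0.18 and 0.02 for all tested genes. The 3 comparisons share the same 4 healthy mice.

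**Figure D1:**
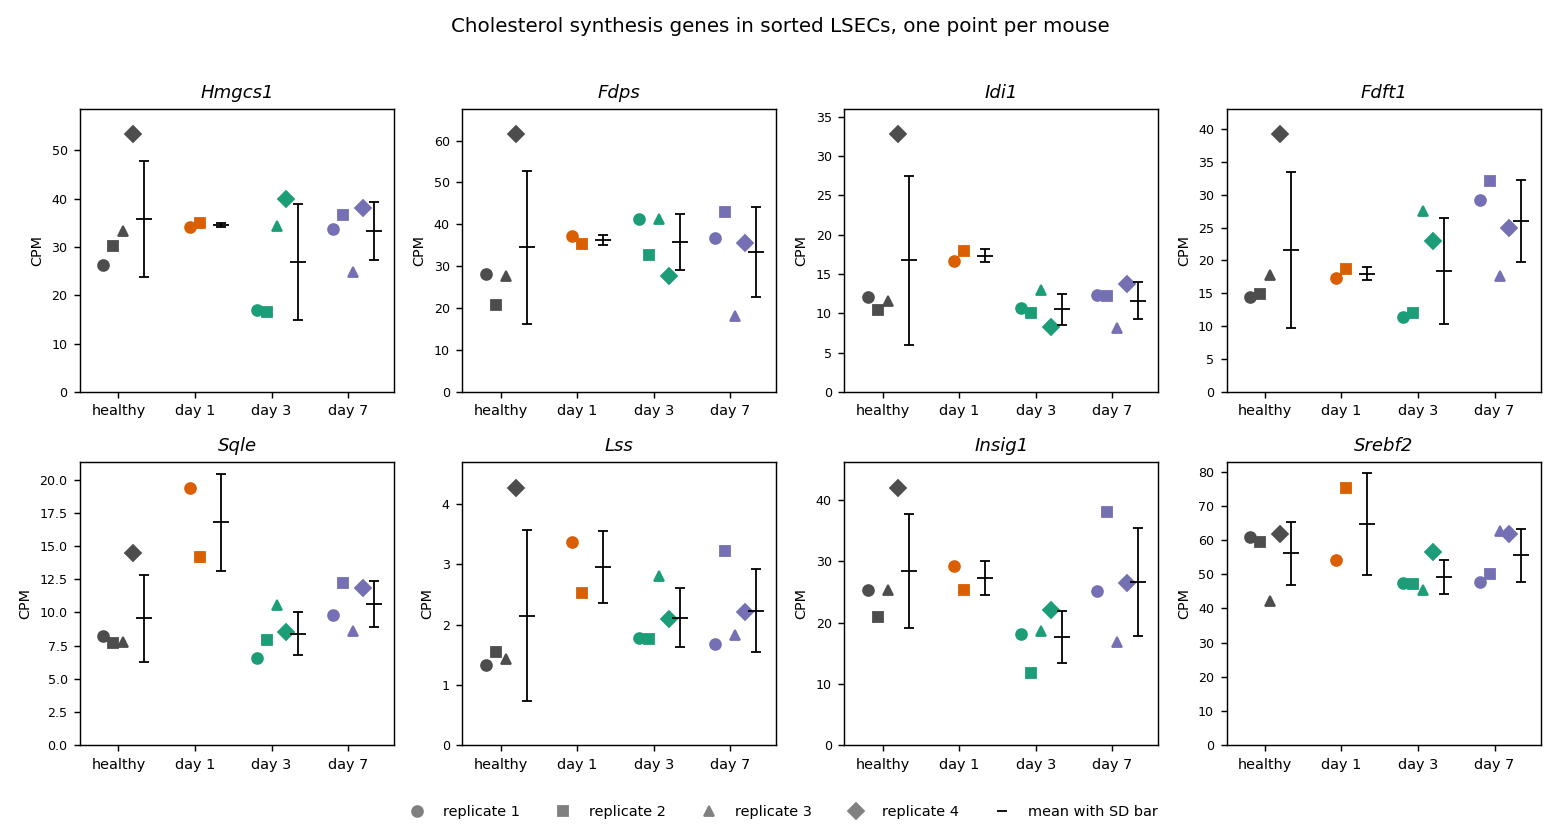
Each panel plots 1 of the 8 genes, with CPM on a linear axis from 0 against the group (healthy n = 4, day 1 n = 2, day 3 n = 4, day 7 n = 4), 1 point per mouse, and the group mean with its SD to the right of the points. Healthy replicate 4 (dark diamond) is the highest of all 14 mice in 6 of the 8 panels, and the groups overlap healthy in every panel.

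Other tools made a few calls. DESeq2 called 0 members against healthy at days 1, 3 and 7 (6.15%, 8.14% and 5.83% of 44622 genes), 0 between day 7 and day 1 (10%), 0 between day 7 and day 3 (3.73%), 0 for any difference (14.6%) and 1 between day 3 and day 1 (Sqle, log2 fold change -0.99, adjusted p = 0.0364), where it called 5.19% of genes. limma-voom with sample quality weights called Sqle at day 1 and Hmgcs1 at day 3 against healthy, and it called 16.2% and 27.3% of all tested genes there. It called 0 members at day 7 against healthy (26.5% of tested genes), 2 between day 3 and day 1 (12.6%), 1 between day 7 and day 1 (28.6%), 1 between day 7 and day 3 (22.5%) and 2 for any difference (53.6%). It weighted day 3 replicates 4 and 3 at 0.0887 and 0.287, against 0.514 to 2.73 in the other 12 libraries. The 2 genes that limma-voom called for any difference were Sqle (adjusted p = 0.00421) and Hmgcs1 (adjusted p = 0.0213).

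Hmgcs1 (ENSMUSG00000093930, chr13:119690379-119708260, plus strand) encodes the cytosolic synthase that makes HMG-CoA, an early step of the mevalonate route. It read 26.3, 30.3, 33.3 and 53.3 CPM in healthy replicates 1 to 4, 34.2 and 34.9 CPM at day 1, 17.0, 16.4, 34.4 and 39.8 CPM at day 3 and 33.8, 36.6, 24.8 and 38.2 CPM at day 7. Day 3 fell apart into 2 mice below every other library and 2 mice within the healthy range, so the groups overlapped. The sum of monocyte and neutrophil markers split the same mice, at 12428 and 7686 CPM in day 3 replicates 1 and 2 against 1451 and 1354 CPM in replicates 3 and 4. So did the number of genes detected, at 34678 and 34768 in replicates 1 and 2 against 28203 and 22986 in replicates 3 and 4. The part of either in the split was not tested. The log2 fold change against healthy was -0.05 at day 1, -0.41 at day 3 (standard error, SE, 0.31, adjusted p = 0.483) and -0.10 at day 7, and at day 3 the 95% interval of the fold ran from 0.476 to 1.19. limma-voom, in which the 2 higher day 3 mice carried the lowest weights, gave -0.82 at day 3 (adjusted p = 0.0258), -0.91 between day 3 and day 1 (adjusted p = 0.0472) and 0.85 between day 7 and day 3 (adjusted p = 0.0315).

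Idi1 (ENSMUSG00000058258, chr13:8885501-8892451, plus strand) encodes the isomerase that turns isopentenyl diphosphate into its reactive isomer. Its level was 12.1, 10.4, 11.6 and 32.8 CPM in healthy mice, 16.7 and 17.9 CPM at day 1, 10.7, 10.1, 13.0 and 8.22 CPM at day 3 and 12.3, 12.2, 8.18 and 13.7 CPM at day 7. Healthy replicate 4 alone lay above day 1, and both day 1 mice lay above every day 3 and day 7 mouse. Against healthy, the log2 fold change was 0.05 at day 1, -0.67 at day 3 (SE 0.34, adjusted p = 0.267) and -0.53 at day 7 (SE 0.34, adjusted p = 0.393). These became 0.58, -0.22 and 0.06 when healthy replicate 4 was left out. Against day 1 the values were -0.72 at day 3 (adjusted p = 0.408) and -0.57 at day 7 (adjusted p = 0.408), neither called in spite of the separation.

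Fdps (ENSMUSG00000059743, chr3:89093588-89101959, minus strand) encodes farnesyl diphosphate synthase, whose product stands where the route to sterols parts from the routes to dolichol, ubiquinone and protein prenylation. Its values were 28.1, 20.7, 27.7 and 61.5 CPM in healthy mice, 37.1 and 35.4 CPM at day 1, 41.3, 32.7, 41.3 and 27.7 CPM at day 3 and 36.7, 43.0, 18.0 and 35.6 CPM at day 7. Most injured mice lay between healthy replicates 1 to 3 and healthy replicate 4. The log2 fold change against healthy was 0.07, 0.05 and -0.05 at days 1, 3 and 7, with 95% intervals of the fold from 0.578 to 1.91, 0.635 to 1.69 and 0.593 to 1.58. With healthy replicate 4 left out it was 0.49, 0.38 and 0.42, and no call was made. The gene shares 1124 exon bases with Gm43738 on the same strand, and Hmgcs1 shares 557 with Gm48342, so reads may be split between them. Gm43738 was counted at 0 in healthy and day 1 mice and at up to 6.19 CPM at day 7, and Gm48342 at no more than 2.88 CPM in any mouse.

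Fdft1 (ENSMUSG00000021273, chr14:63145150-63179578, minus strand) encodes squalene synthase, the first step that leads to sterols alone. It read 14.4, 14.8, 17.8 and 39.2 CPM in healthy mice, 17.3 and 18.7 CPM at day 1, 11.4, 11.9, 27.4 and 23.0 CPM at day 3 and 29.3, 32.0, 17.6 and 24.9 CPM at day 7. As with Hmgcs1, day 3 replicates 1 and 2 were the lowest 2 libraries and replicates 3 and 4 lay higher. The monocyte and neutrophil marker sums and the numbers of genes detected given for Hmgcs1 split these mice too. Its log2 fold change against healthy was -0.26 at day 1, -0.23 at day 3 and 0.27 at day 7, where the SE was 0.37 and the 95% interval of the fold ran from 0.697 to 2.08. Without healthy replicate 4 the day 7 value was 0.76 (adjusted p = 0.25). The gene shares 774 exon bases with Ctsb on the opposite strand, a cathepsin with a mean of 2090.0 CPM in healthy mice and 6843 CPM at day 1, and the sources used here do not say whether counting used the strand. Its values are therefore uncertain.

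Sqle (ENSMUSG00000022351, chr15:59315077-59331192, plus strand) encodes squalene epoxidase, an oxygen-using step that is limiting for the late part of the route. It was the member with the smallest p in edgeR's quasi-likelihood test across the 4 groups (adjusted p = 0.131). Its level was 8.20, 7.73, 7.79 and 14.5 CPM in healthy mice, 19.4 and 14.2 CPM at day 1, 6.60, 7.94, 10.5 and 8.50 CPM at day 3 and 9.83, 12.2, 8.60 and 11.9 CPM at day 7. Both day 1 mice lay above all day 3 and day 7 mice, while healthy replicate 4 lay between the 2 day 1 values, so that day 1 and healthy overlapped.

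The log2 fold change of Sqle at day 1 against healthy was 0.81 (SE 0.30, adjusted p = 0.163, 95% interval of the fold 1.12 to 2.76). Without healthy replicate 4 it was 1.06 (adjusted p = 0.0819), and limma-voom gave 0.97 (adjusted p = 0.00579). Day 3 stood below day 1, with a log2 difference of -1.0 (SE 0.30, adjusted p = 0.108, 95% interval of the fold 0.319 to 0.783), and so did day 7, with -0.66 (SE 0.30, adjusted p = 0.198). DESeq2 called the first (-0.99, adjusted p = 0.0364), and limma-voom called both (-1.11, adjusted p = 0.0155, and -0.62, adjusted p = 0.0492). Hepatocyte marker sums were lowest in the 2 day 1 mice. Monocyte and neutrophil marker sums were 508 to 1371 CPM in healthy samples and 4302 to 8346 CPM at day 1. They were 1354 to 12428 CPM at day 3 and 4142 to 9580 CPM at day 7. The part of other cells in the Sqle values was not tested. Among all tested genes, 10.4% lay lower in every day 3 mouse than in both day 1 mice, as 3 of the 8 did (Idi1, Sqle and Insig1), and 23.1% lay lower in every day 7 mouse, as 2 of the 8 did (Idi1 and Sqle). Against healthy, 0 of the 8 were free of overlap at any day, beside 37.9%, 14.4% and 20.8% of tested genes at days 1, 3 and 7, and between day 7 and day 3 none was, beside 7.91%.

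Lss (ENSMUSG00000033105, chr10:76531588-76557138, plus strand) encodes lanosterol synthase, which closes the sterol rings. It was the least abundant member, at 1.34, 1.55, 1.44 and 4.27 CPM in healthy mice, 3.37 and 2.53 CPM at day 1, 1.78, 1.77, 2.81 and 2.10 CPM at day 3 and 1.68, 3.22, 1.83 and 2.20 CPM at day 7. Healthy replicate 4 was the highest library and healthy replicates 1 to 3 were the lowest 3. The fitted log2 fold changes were 0.46 at day 1 (SE 0.48), -0.02 at day 3 and 0.06 at day 7, and 1.01, 0.46 and 0.66 without healthy replicate 4, none of them called.

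Insig1 (ENSMUSG00000045294, chr5:28071363-28078662, plus strand) encodes a membrane protein that retains SREBP2 in the endoplasmic reticulum. It read 25.3, 20.8, 25.4 and 42.0 CPM in healthy mice, 29.2 and 25.3 CPM at day 1, 18.1, 11.8, 18.7 and 22.1 CPM at day 3 and 25.1, 38.0, 16.8 and 26.4 CPM at day 7. The day 3 mice were low, with only replicate 4 above the lowest healthy mouse and all 4 below both day 1 mice. At day 3 the log2 fold change was -0.68 against healthy (SE 0.28, adjusted p = 0.17, 95% interval of the fold 0.409 to 0.949) and -0.63 against day 1 (SE 0.34, adjusted p = 0.387). Leaving out healthy replicate 4 gave -0.52 against healthy (adjusted p = 0.342). From day 3 to day 7 the difference was 0.59 (SE 0.28, adjusted p = 0.279).

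Srebf2 (ENSMUSG00000022463, chr15:82147181-82205379, plus strand) encodes the transcription factor SREBP2 itself. Its level was 61.0, 59.3, 42.3 and 61.8 CPM in healthy mice, 54.2 and 75.3 CPM at day 1, 47.5, 47.2, 45.5 and 56.5 CPM at day 3 and 47.8, 50.0, 62.7 and 61.7 CPM at day 7. Healthy replicate 4 did not stand out in it, and the 2 day 1 mice lay far apart. The log2 fold change against healthy was 0.21, -0.19 and -0.01 at days 1, 3 and 7, with 95% intervals of the fold from 0.841 to 1.59, 0.676 to 1.14 and 0.763 to 1.29. RNA of a factor that is activated by cleavage does not measure its activity.

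**Figure D2:**
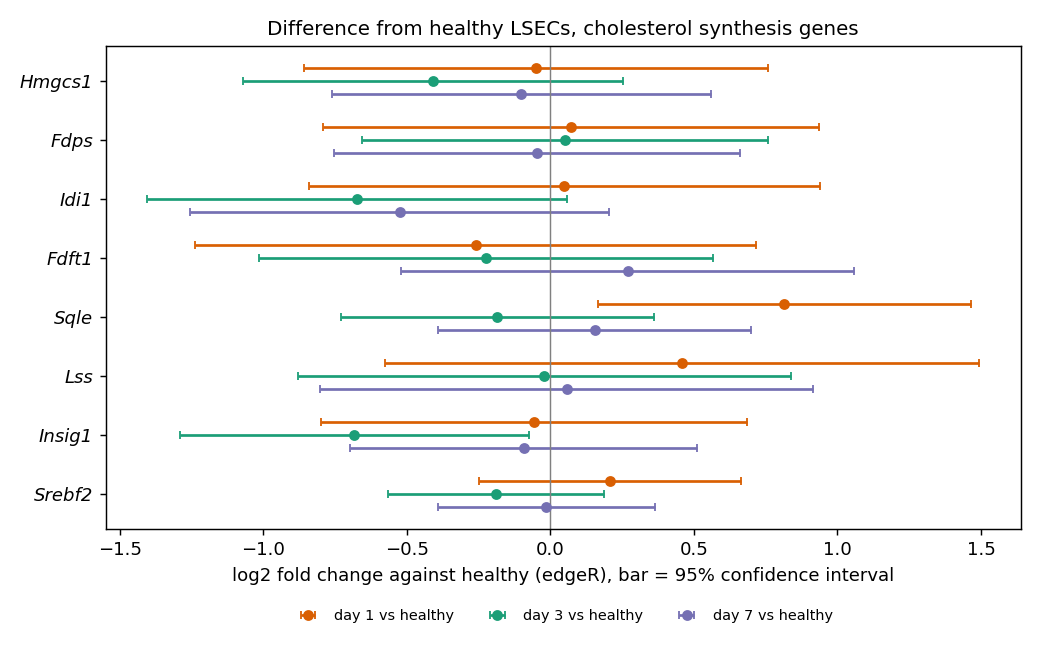
The log2 fold change of each of the 8 genes against the 4 healthy mice is plotted on the horizontal axis for days 1, 3 and 7 (edgeR), with its 95% confidence interval as a bar. The interval lies clear of 0 for Sqle at day 1 and Insig1 at day 3 before adjustment for the number of genes, and neither was called after it.

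Levels per gene length (RPKM, TMM-scaled CPM divided by exon length in kilobases) put the 8 genes in an order with the same 2 genes last in each group. In healthy LSECs the means were 9.17 for Insig1, 8.20 for Fdps, 7.81 for Srebf2, 7.79 for Hmgcs1, 5.10 for Fdft1 and 4.77 for Idi1, and neighbours in this order overlapped between mice. Sqle at 1.72 ± 0.594 RPKM and Lss at 0.199 ± 0.131 RPKM (SD, n = 4) lay below them without overlap between neighbours. Lss was last and Sqle next to last at every time. At day 1 Sqle stood at 3.03 ± 0.662 RPKM (SD, n = 2), and at day 3 the mean of Insig1 was 5.71 ± 1.38 RPKM (SD, n = 4).

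Healthy replicate 4 was the highest of all 14 libraries for 6 of the 8 genes (Hmgcs1, Fdps, Idi1, Fdft1, Lss and Insig1), as it was for 6.37% of tested genes, with TMM or with library size alone as the scaling. The mean of the 8 genes, each standardised over the 14 mice on the log2 CPM scale, was 1.73 in it and -0.40, -0.58 and -0.53 in the other healthy mice. It was 0.64 and 0.65 at day 1, -0.85, -1.05, 0.13 and -0.16 at day 3 and 0.01, 0.65, -0.67 and 0.43 at day 7. Healthy replicate 4 had both the highest mean and the highest hepatocyte marker sum, while the 2 day 1 mice had the lowest marker sums and means above those of healthy replicates 1 to 3. Within day 7, replicate 2 was highest and replicate 3 lowest in both measures. The part of hepatocyte RNA in these values was not tested.

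**Figure D3:**
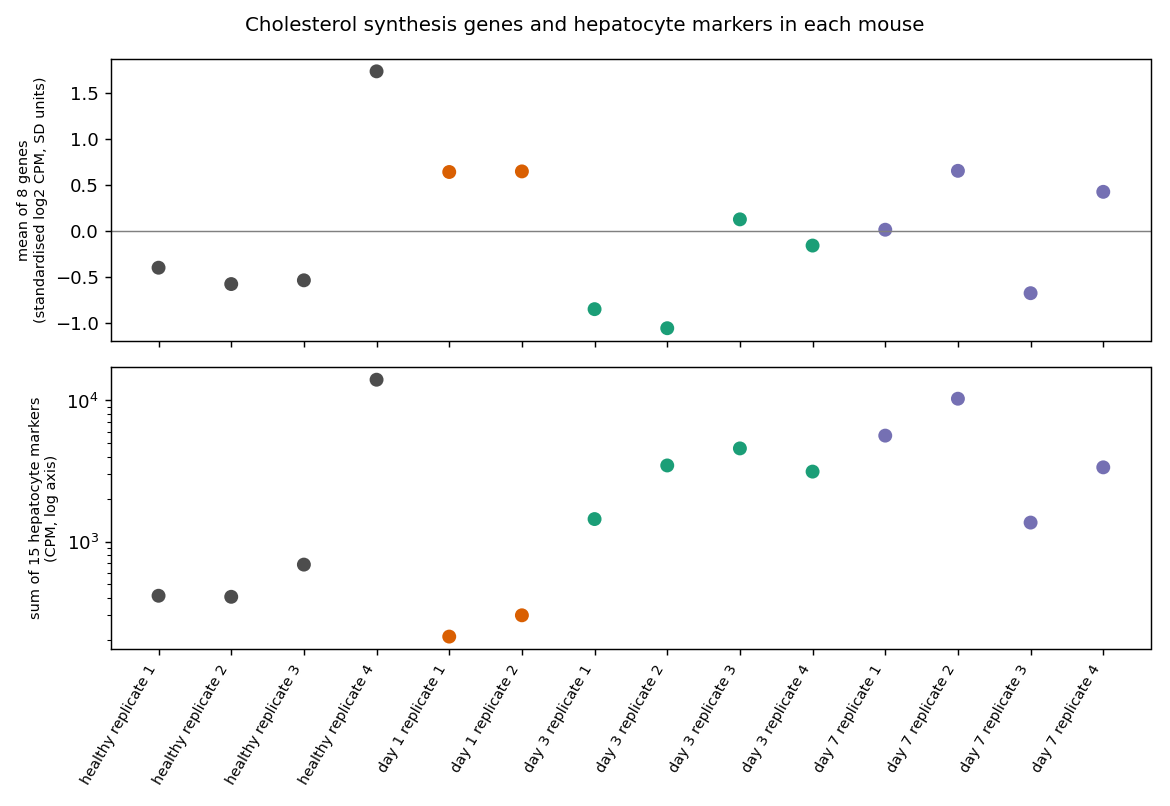
The upper panel gives, for each of the 14 mice, the mean of the 8 genes after each was standardised over all mice (SD units), and the lower panel gives the sum of 15 hepatocyte markers in CPM on a log axis. Healthy replicate 4 is highest in both panels (1.73 and 14029.5 CPM), and the 2 day 1 mice are high in the upper panel (0.64 and 0.65) and lowest in the lower one.

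Leaving out healthy replicate 4 raised the medians against healthy, and the sign of the median changed at day 7 alone. With all 4 healthy mice, 5 of the 8 log2 fold changes were above 0 at day 1, 1 at day 3 and 3 at day 7. Without healthy replicate 4 they were 8, 3 and 8, the medians were 0.36, -0.115 and 0.30, and the sign changed for 3, 2 and 5 of the genes. 0 of the 8 were called either way, so the test established neither direction.

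The 8 genes moved together across mice to differing degrees. Over the 14 samples, the Pearson correlation of log2 CPM was 0.85 between Hmgcs1 and Fdft1, 0.82 between Sqle and Lss and 0.80 between Hmgcs1 and Insig1. Srebf2 gave -0.15 to 0.37 with the other 7, and Hmgcs1 with Fdps gave 0.34. Without healthy replicate 4 (13 mice) the 3 pairs gave 0.80, 0.81 and 0.74, and Srebf2 -0.35 to 0.32. Some other pairs fell further without it, Hmgcs1 and Fdps to 0.09 and Idi1 and Fdft1 from 0.51 to 0.20. Idi1 and Sqle went from 0.72 to 0.77. These points share libraries. The 10 tested genes outside all lists whose log2 CPM was closest to the mean of the 8 were Lactb2 (r = 0.92), Slc25a15 (0.90), Klf15 (0.84), Gm13502 (0.84), Ehhadh (0.83), Aco1 (0.83), Mreg (0.82), Ghr (0.82), Gm42604 (0.82) and Acadvl (0.82). Without healthy replicate 4 (13 mice), r was 0.89 for Lactb2, 0.84 for Slc25a15 and 0.81 for Aco1 and between 0.65 and 0.77 for the other 7. Gm13502 is a processed pseudogene that matches Idi1 at 100% over 684 bases, so reads can be split between them. It held at most 424 counts.

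The other enzymes of sterol synthesis gave few calls too. Of 15 in the list, edgeR called 0 against healthy at day 1, 3 or 7, beside 4.06%, 7.19% and 3.18% of all tested genes. At an unadjusted p under 0.05 there were 2, 3 and 1, beside 17.9%, 22.2% and 21.1%. The medians of the log2 fold changes of the 15 were -0.07, -0.28 and -0.28. DESeq2 called 0, 1 and 1 (6.15%, 8.14% and 5.83% of all genes) and limma-voom 3, 5 and 3 (16.2%, 27.3% and 26.5%). Hsd17b7, which encodes a late ketoreductase of the route, was the only one that edgeR called in any of the 6 comparisons. It read 16.9 and 13.9 CPM at day 1 and 4.98, 5.50, 3.29 and 5.44 CPM at day 7, without overlap, a log2 fold change of -1.68 (SE 0.42, adjusted p = 0.0282), and the call was lost when either day 1 mouse or any 1 day 7 mouse was left out.

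Mvd, the decarboxylase that yields isopentenyl diphosphate, fell outside the rule for named genes and was chosen after its values were seen. Its log2 fold change at day 1 was 1.07 and was not called (adjusted p = 0.127). Without healthy replicate 4 it was 1.15 (adjusted p = 0.147).

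**Figure D4:**
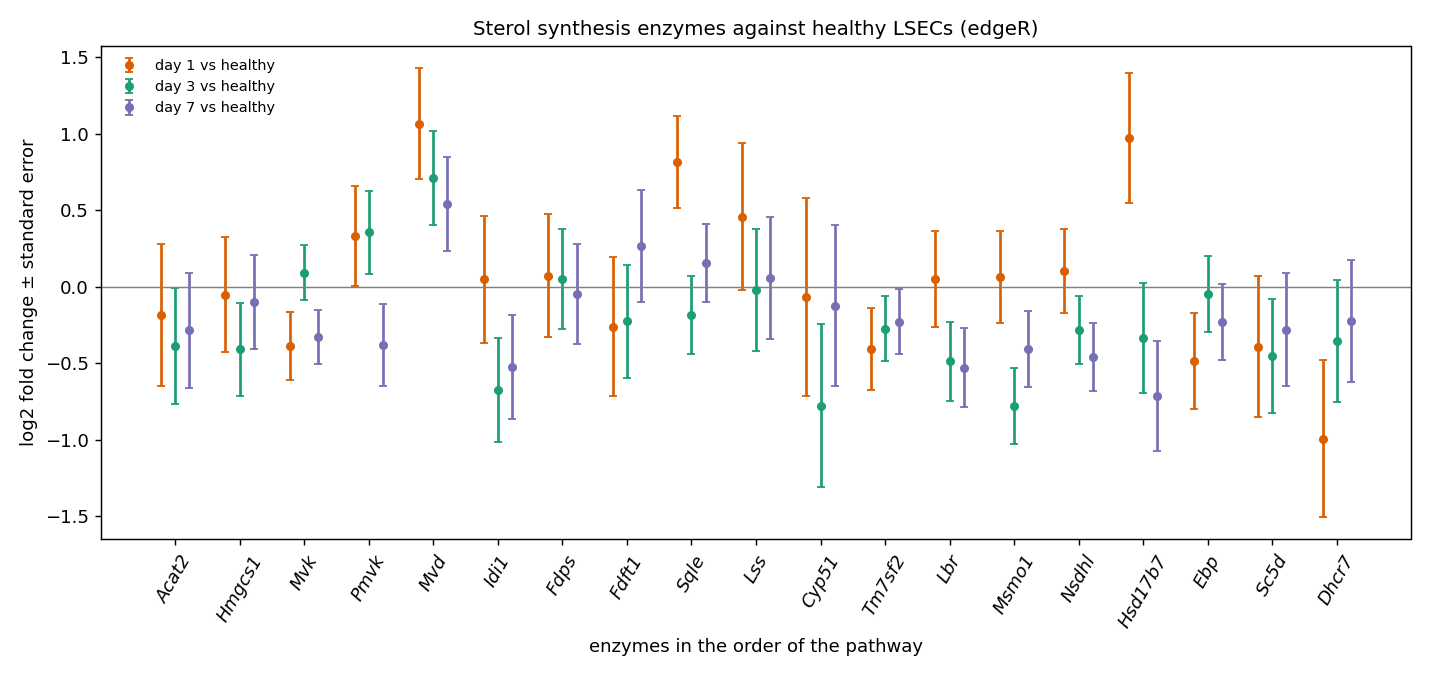
The 6 members that are enzymes and other enzymes of the list stand in pathway order on the horizontal axis, with the log2 fold change against healthy on the vertical axis and bars of 1 standard error (edgeR). All points lie between -1 and 1 except that of Mvd at day 1 (1.07).

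Of 8 genes for SREBP processing and degradation, edgeR called 0 in each of the 6 comparisons, beside 1.77% to 8.04% of all tested genes. At an unadjusted p under 0.05 there were 0, 3 and 2 at days 1, 3 and 7 against healthy, beside 17.9%, 22.2% and 21.1% of tested genes. DESeq2 called 0, 1 and 0 there (6.15%, 8.14% and 5.83% of all genes) and limma-voom 0, 2 and 2 (16.2%, 27.3% and 26.5%). By edgeR the one with the smallest p was Insig2, the second INSIG gene. It read 47.4, 32.7, 43.2 and 90.7 CPM in healthy mice and 33.8, 30.7, 24.8 and 21.5 CPM at day 3, a log2 fold change of -0.95 (SE 0.29, adjusted p = 0.0678), called in 4 of 23 settings. It was -0.69 (adjusted p = 0.107) when healthy replicate 4, the highest mouse, was left out. Among 6 enzymes of the isoprenoid branches, Pdss1, for the side chain of ubiquinone, was called between day 7 and day 1 (-1.11, adjusted p = 0.0445), in 9 of the 23 settings (the reported one and 22 alternatives) and not without healthy replicate 4 (-1.07, adjusted p = 0.0618).

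Uptake and transport genes under SREBP2 (6 genes) held 1 call against healthy, at day 3, where 7.19% of all tested genes were called. Npc1, which carries cholesterol out of lysosomes, read 26.7, 21.2, 22.5 and 23.3 CPM in healthy mice and 51.7, 86.1, 28.0 and 39.0 CPM at day 3, and it rose by 1.13 on the log2 scale (SE 0.29, adjusted p = 0.0329). The call held in 10 of 23 settings and was lost without any 1 healthy mouse. Day 3 replicates 1 and 2, the highest in Npc1, also had the higher monocyte and neutrophil marker sums and more genes detected. The sums were 12428 and 7686 CPM against 1451 and 1354 CPM in replicates 3 and 4. The part of either in the rise was not tested. Stard4, a cytosolic sterol carrier, read 73.4, 60.4, 68.9 and 53.0 CPM in healthy mice and 41.8 and 43.8 CPM at day 1. At day 7 it read 72.3, 60.7, 65.5 and 66.6 CPM, within or near the healthy range. The rise from day 1 to day 7 was called (log2 fold change 0.63, SE 0.18, adjusted p = 0.0439, 10 of 23 settings). Against healthy, the log2 fold change of Stard4 was -0.58, -0.46 and 0.05 at days 1, 3 and 7, none of them called in the reported fit. At day 3 it read 45.8, 42.5, 49.3 and 48.1 CPM. Without healthy replicate 4, edgeR called the day 3 difference (-0.64, adjusted p = 0.047). Stard4 was called against healthy in 4 of 23 settings at day 1 and in 8 of 23 at day 3.

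Several genes of cholesterol export and of the liver X receptors (LXR), which sense oxysterols, were called. Of 11, 2 were called higher and 3 lower at day 1, 2 higher and 3 lower at day 3, and 3 higher and 1 lower at day 7. The shares of all tested genes called in either direction were 4.06%, 7.19% and 3.18%. Abca1, the pump that loads cholesterol onto apolipoprotein A-I, read 50.5, 61.2, 53.3 and 43.1 CPM in healthy mice, 149 and 120 CPM at day 1, 111, 256, 113 and 147 CPM at day 3 and 115, 135, 155 and 102 CPM at day 7. Every injured mouse lay above every healthy one, and it rose by 1.37 (adjusted p = 0.0203), 1.59 (adjusted p = 0.00428) and 1.28 (adjusted p = 0.0197) on the log2 scale. The day 3 call held in 23 of 23 settings, the day 1 call in 18 and the day 7 call in 20. Its day 1 value without healthy replicate 4 was 1.27 (adjusted p = 0.0508).

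Ch25h makes 25-hydroxycholesterol, an oxysterol that blocks SREBP2 processing through INSIG. It stood at 3.82, 2.77, 2.57 and 3.03 CPM in healthy mice, 310 and 214 CPM at day 1, 23.0, 49.5, 20.1 and 9.71 CPM at day 3 and 10.1, 20.9, 10.3 and 10.2 CPM at day 7. There was no overlap with healthy at any day, and the rises of 6.42 at day 1 (SE 0.53, adjusted p = 3.61e-05), 3.07 at day 3 (adjusted p = 0.0021) and 2.08 at day 7 (adjusted p = 0.0192) were all called. Calls at days 1 and 3 held in 23 of 23 settings and at day 7 in 19. Monocyte and neutrophil markers were also higher in injured mice, and whether other cells supplied Ch25h RNA was not tested.

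Mylip, an E3 ubiquitin ligase under LXR control, fell at day 3 by 1.17 on the log2 scale (SE 0.18, adjusted p = 0.00271), from 439, 425, 465 and 421 CPM to 157, 164, 215 and 240 CPM. At day 7 it fell by 0.73 (adjusted p = 0.0405), a call that held in 9 of 23 settings and not without healthy replicate 4. Cyp27a1, the sterol 27-hydroxylase, read 33.1, 34.7, 30.1 and 49.4 CPM in healthy mice, 12.8 and 13.96 CPM at day 1, 19.3, 17.7, 18.0 and 22.7 CPM at day 3 and 39.7, 47.9, 32.7 and 36.0 CPM at day 7. It fell by 1.46 at day 1 (adjusted p = 0.00509) and by 0.92 at day 3 (adjusted p = 0.0124) and overlapped healthy at day 7, with a log2 fold change of 0.09 that was not called. Hepatocyte marker sums were lowest in the 2 day 1 mice (212 and 301 CPM). They were highest in healthy replicate 4 and day 7 replicate 2 (14029.5 and 10291 CPM), the highest mice in Cyp27a1. At day 3 the sums (1445 to 4574 CPM) were above those of healthy replicates 1 to 3 (406 to 687 CPM), while Cyp27a1 was lower. Other calls against healthy, named here because the counts are small, were Abcg1 (-1.34 at day 1, adjusted p = 0.0358), Apoe (-1.28 at day 1, adjusted p = 0.01, and -0.72 at day 3, adjusted p = 0.036) and Soat1 (0.75 at day 7, adjusted p = 0.0261), and each was lost in 2 to 6 of 23 settings. The part of other cells in the values of these genes, Cyp27a1, Mylip and Abca1 was not tested.

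**Figure D5:**
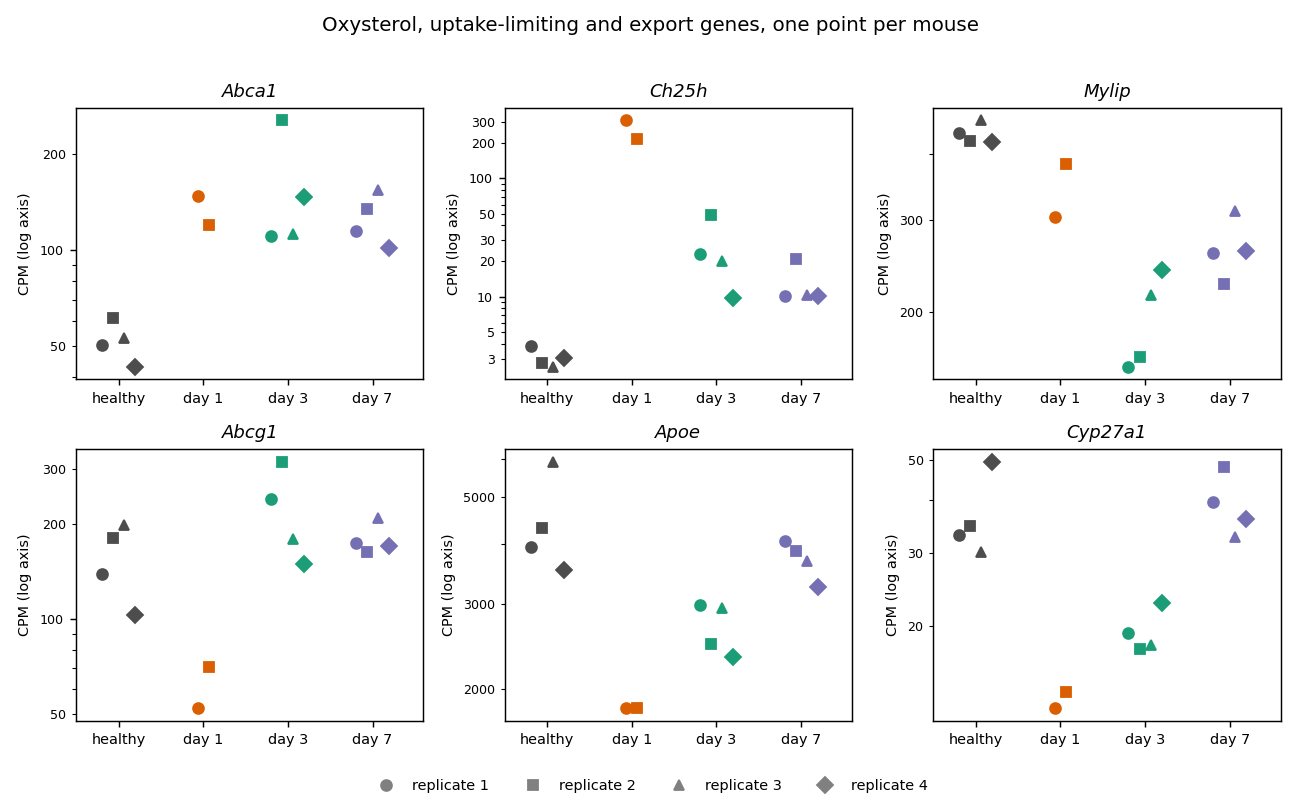
CPM on log axes is plotted for 6 genes of the export and LXR list in each mouse, 1 point per mouse, in the 4 groups. Abca1 and Ch25h lie above the healthy mice in every injured mouse, while Cyp27a1 is lower at days 1 and 3 and overlaps healthy at day 7.

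Fatty acid synthesis under SREBP1 (10 genes) gave 0 calls at day 1, Acaca higher at day 3 (0.85, adjusted p = 0.0496, in 6 of 23 settings and not without healthy replicate 4) and Scd1 higher at day 7. Of all tested genes, 4.06%, 7.19% and 3.18% were called at these days. Scd1, a fatty acid desaturase, rose from 7.25, 9.41, 12.5 and 20.3 CPM in healthy mice to 35.3, 47.9, 23.6 and 80.1 CPM, a log2 fold change of 1.92 (SE 0.40, adjusted p = 0.0241), in 18 of 23 settings. The hepatocyte marker sum was also higher in all 4 day 7 mice (1364 to 10291 CPM) than in healthy replicates 1 to 3 (406 to 687 CPM), and healthy replicate 4, with the highest sum, had the highest healthy Scd1. Its part in the rise was not tested. Scd2 was called against day 1 at day 3 (1.30, adjusted p = 0.0256) and at day 7 (1.41, adjusted p = 0.00948).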

How the data were processed

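RNA of LSECs from 14 mice was sequenced. The authors trimmed the reads, mapped them with STAR to GRCm38 and assembled them with StringTie, and deposited read counts per Ensembl gene for each sample, without normalization. Tool versions, the annotation release and the use of strand are not given in the sources used here, and the methods describe the reads both as paired-end and as single-end. Counts of overlapping genes and near-identical copies are therefore uncertain.

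Names, lengths and positions came from GENCODE vM21, which held 54495 of 54524 identifiers. Genes were filtered with filterByExpr (minimum count 10, minimum total 15), scaled with TMM and tested with edgeR 4.0.16 (R 4.3.3), a quasi-likelihood fit of 4 group means over 14 samples with Benjamini-Hochberg adjustment over 26626 genes and a threshold of 0.05. The shared fit was used because day 1 has 2 mice. Each SE was taken as the size of the log2 fold change over the root of F. CPM and RPKM use TMM-scaled library sizes, and log2 CPM a prior count of 2. The libraries carry no molecular identifiers, so precision from depth covers counting error only.

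The 8 genes and the other lists were chosen with earlier results of these data known. Named were the members, for each other sterol list at most 4 called genes with the smallest p (1 where none was called), and the 10 genes most like the members. Marker lists are given as sums. Values of some genes of the lists are not reported here. The 22 alternatives included DESeq2 1.42.0, voom from limma 3.58.1 with weights per sample, other scalings and filters, 2-group fits, a replicate block and leaving out each mouse. The fits were tested on simulated data. Promoter sequences are from RefSeq. The authors' comparisons, staining and single-cell data were not used here.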

Additional observations from a re-analysis of the deposited data

Results flagged for a closer look

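Within the groups of 4 mice, 24 sets of values (8 genes in 3 groups) were searched for a mouse far from the others with Dixon's ratio, the gap to the nearest mouse divided by the range, against the 95% limit for 4 samples. Chance flags about 1 in 20 groups, and 4 of 24 passed. In healthy LSECs, replicate 4 lay above the other 3 mice in Idi1 (32.8 against 10.4 to 12.1 CPM, ratio 0.869), in Sqle (14.5 against 7.73 to 8.20 CPM, ratio 0.905) and in Lss (4.27 against 1.34 to 1.55 CPM, ratio 0.873). Healthy replicate 3 lay below the others in Srebf2 (42.3 against 59.3 to 61.8 CPM, ratio 0.894). The first 3 are the same mouse, which also held the highest hepatocyte marker sum, and the part of that in the 3 values was not tested.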

How the results depend on the processing

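Over the alternatives to 13 counts of called genes (7 for the members and 6 for the other sterol enzymes), 251 values stayed within 1.5 times the reported count, 27 rose and 7 fell. Every change in the 8 members came from 2 tools. limma-voom called 1 member at day 1 against healthy, 1 at day 3, 2 between day 3 and day 1, 1 between day 7 and day 1, 1 between day 7 and day 3, and 2 in the test of any difference, in which it called 53.6% of all genes. DESeq2 called 1 between day 3 and day 1. Leaving out any 1 mouse gave 0 to 0 members in each comparison. For the 15 other sterol enzymes, limma-voom called 3, 5 and 3 at days 1, 3 and 7 against healthy, 3 and 5 at days 3 and 7 against day 1, and 1 between day 7 and day 3. DESeq2 called 1 at day 3 and 1 at day 7 against healthy, and 2 and 2 against day 1. Keeping all genes with at least 1 count, or only those with a mean of at least 1 CPM, called 1 at day 3. Leaving out 1 mouse gave 0 to 1 at day 3, 0 to 1 at day 7, 0 to 1 between day 3 and day 1 and 0 to 2 between day 7 and day 1. The causes were not tested.

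Same-numbered mice did not deviate together (18 pairs, r -0.232 to 0.0962). The check is weak, since the deviations of the 2 day 1 mice mirror each other. It cannot show that the samples are unpaired. With the replicate number as a block, 0 members were called, and the other enzymes called between day 7 and day 1 went from 1 to 0.

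With library size alone as the scaling, the share of called genes that were higher went from 64.2% to 75.1% at day 3 and from 68.8% to 86.8% at day 7, and from 45.3% to 56% between day 7 and day 1, where the median log2 change of all genes went from 0.03 to 0.15. The signs of Idi1 at day 1 (0.05 to -0.01), Lss at day 3 (-0.02 to 0.02) and Fdps and Srebf2 at day 7 (-0.05 to 0.03 and -0.01 to 0.05) turned under it. Over all genes, edgeR called 1080, 1915 and 846 at days 1, 3 and 7 against healthy, DESeq2 2745, 3633 and 2602, and limma-voom 4308, 7265 and 7047. Between injured groups (day 3 and day 1, day 7 and day 1, day 7 and day 3) these were 676, 2142 and 472, then 2314, 4468 and 1663, and 3344, 7610 and 6002.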
